A study of Mus musculus with 22 samples.

Results

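The comparison described here is that of trisomic with euploid liver, over the genes that do not lie on chromosome 17. Its members are all genes placed outside that chromosome whose mean level over the 6 liver arrays was at least 4, and 7761 of the 15009 genes of the array outside chromosome 17 met this rule. The other 7248 had a lower mean, and in 189 of them the mean of 1 genotype alone reached 4. The gene just inside the limit was Acad12, with a mean of 4.0003, and the gene just outside it was Terb2, with a mean of 3.993. The chromosomal position of a gene and its mean level over both genotypes chose the members. The difference between the genotypes was not used directly, but a gene low in 1 genotype could reach the limit through the other. Abcc4 did so, with a mean of 4.06 over the 6 arrays and 2.80 in euploid livers. Among other genes described below, H19, Sult1e1, Fam81a, Spink1 and Bhlhb9 did too, with euploid means of 2.16, 2.41, 2.83, 3.32 and 3.78. The same holds for Afp (2.95 in euploid livers). Serpina12 and Serpina9 reached the limit through the euploid arrays, with trisomic means of 3.18 and 2.46.

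The trisomic livers came from Ts43H males, which carry an extra copy of the centromeric end of chromosome 17 on a small translocation chromosome. The euploid livers came from t121/D17 males. Both groups were males, with an age of 2 months given for all samples, and each genotype had 3 liver arrays, while the rest of the 22 arrays measured sorted germ cells of the same genotypes. The labels give neither the genetic background nor whether the arrays of a genotype came from separate animals, so the p values measure the spread between arrays, which may be technical. Levels are log2 intensities per gene as the authors deposited them, and values below 3 lie in the background range of the array. A difference is the trisomic minus the euploid mean on this log2 scale.

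An extra chromosome segment adds a copy of the genes it carries, and genes elsewhere keep their usual number of copies. In adult male liver the pulsatile release of growth hormone keeps one set of cytochrome P450, sulfotransferase and serpin genes high and another set low, and hepatocytes, which secrete most plasma proteins, keep a large endoplasmic reticulum with its folding chaperones.

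The libraries were alike in most respects, with exceptions. Trisomic replicate 2 lay over 2 log2 units below all other arrays in 12 genes and euploid replicate 3 in 10. Trisomic replicate 3 lay that far above all other arrays in 11 genes. The correlation of levels across the members was 0.975 to 0.980 for arrays of the same genotype and 0.950 to 0.972 for arrays of different genotypes, taken across genes, which are not replicates. The 13 hepatocyte markers were equally high, with a summed level of 19.65 to 19.70 on the trisomic and 19.60 to 19.72 on the euploid arrays. Trisomic replicate 3 also held transcripts of skeletal muscle. Acta1, the skeletal muscle actin gene, was at 2.79, 2.84 and 10.78 in trisomic livers, against 2.77, 2.77 and 2.77 in euploid livers. The myosin gene Myh1 was at 2.46, 2.36 and 10.81 in trisomic livers, against 2.49, 2.41 and 2.42 in euploid livers. The summed level of the 9 muscle markers was 11.99 on that array and between 5.60 and 5.76 on the other 5. In such bulk samples fewer cells of a type and less RNA per cell cannot be told apart. Results are therefore also given without that array.

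Of the 7761 genes, 40 passed the threshold (0.515%), an adjusted p under 0.05 in limma's moderated test on the 6 liver arrays. Of these 24 rose (0.309%) and 16 fell (0.206%), and at an unadjusted p under 0.05 the counts were 642 and 619. The count depended on how the spread was estimated. With the spread of each gene estimated over all 22 arrays, 758 genes passed (9.77%), 425 upward and 333 downward (5.48% and 4.29%). Of the members 1342 had a mean under 4 in every germ cell type, and for these the shared spread rests largely on arrays near the floor. Of the 40 genes, 37 passed in both fits, and the exceptions were Myadm, Cisd3 and Ankrd46, which passed in the liver fit alone. On all 40 the 3 trisomic arrays lay entirely above or entirely below the 3 euploid arrays, a separation found in 22.3% of all members, 834 genes upward and 899 downward (10.7% and 11.6%).

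**Figure D1:**
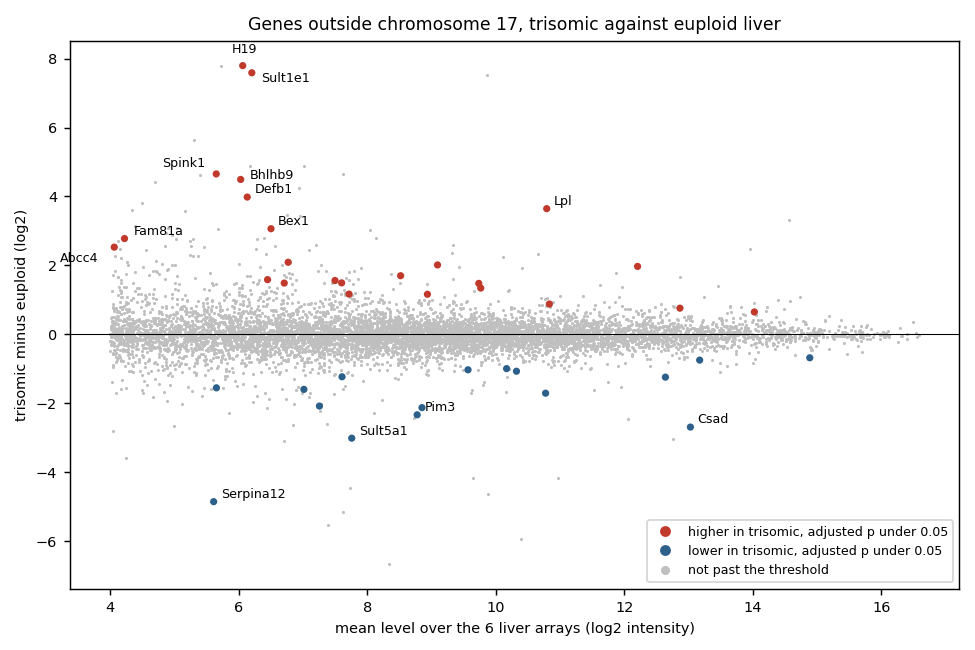
Trisomic minus euploid difference (log2) of each of the 7761 genes outside chromosome 17, against its mean level over the 6 liver arrays (log2 intensity). Red points are the 24 genes that rose, blue points the 16 that fell and grey points all others. Grey points far from 0 are genes whose difference did not pass the threshold.

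The bulk of the genes differed little. The median difference was -0.019 and the middle range ran from -0.233 to 0.218 between the quartiles. A difference above 1 was seen in 261 genes upward and 158 downward, and one above 2 in 70 and 30. Of the 100 genes that differed by over 2, 17 passed the threshold, and the arrays overlapped between the genotypes in 18. The trisomic livers did not vary more than the euploid ones: the median SD of a gene was 0.21 over the trisomic and 0.24 over the euploid arrays, and the trisomic SD was the larger in 44.8% of the genes.

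Of the 24 genes that rose, the 2 with the largest differences lay in the background range on every euploid array. They reached the minimum mean through their trisomic arrays. Sult1e1, the oestrogen sulfotransferase that inactivates oestrogens by conjugation, was at 9.55, 10.31 and 10.14 in trisomic livers, against 2.28, 2.70 and 2.25 in euploid livers. All 3 euploid arrays were in the background range and all 3 trisomic arrays lay close together, far above it. The difference was 7.59 (SE 0.28, adjusted p = 8.4e-05), and without any 1 array it lay between 7.44 and 7.82 and passed. H19, an imprinted noncoding RNA that is high in fetal liver and in muscle, was at 8.04, 9.85 and 11.99 in trisomic livers, against 2.11, 2.25 and 2.13 in euploid livers. The genotypes were far apart, but the trisomic arrays spread over a wide range, with the highest value on replicate 3, the array with muscle transcripts. H19 rose by 7.80 (SE 0.86, adjusted p = 0.0207), and by 6.78 without that array (adjusted p = 0.0157), and it passed in 2 of the 6 fits that left out 1 array. Its imprinted neighbour Igf2, a growth factor gene of fetal liver, stayed in the background range, at 2.33 to 2.46 in trisomic and 2.36 to 2.44 in euploid livers. Afp, the fetal serum protein gene, was at 5.05, 4.56 and 6.03 in trisomic livers, against 2.92, 2.76 and 3.17 in euploid livers, a difference of 2.26 that missed the threshold (adjusted p = 0.0565).

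Lpl encodes lipoprotein lipase, which releases fatty acids from circulating triglyceride and is normally low in adult hepatocytes. It was at 12.47, 12.76 and 12.61 in trisomic livers, against 9.23, 8.41 and 9.26 in euploid livers. Every trisomic array was more than 3 log2 units above every euploid array. Lpl rose by 3.65 (SE 0.24, adjusted p = 0.00235), and by 3.65 without trisomic replicate 3, and it passed whichever array was left out. The 6 adipocyte markers, with Lpl among them, summed to 15.83 to 16.003 in trisomic and 15.49 to 15.91 in euploid livers, which overlapped. The sum lay far above the level of Lpl, so other markers made up most of it. Its overlap therefore cannot tell whether the livers held more fat cells. The 3 of these markers that reached the minimum mean, Lpl among them, had higher means in trisomic livers, with a median difference of 0.34. Spink1, a trypsin inhibitor gene, rose by 4.66 (SE 0.61) and Defb1, which encodes an antimicrobial defensin, by 3.98 (SE 0.45). Defb1 was at 8.24, 7.98 and 8.16 in trisomic livers, against 3.90, 5.17 and 3.35 in euploid livers. The 4 defensin genes next to it on chromosome 8 lay below the minimum mean.

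A group of X-linked genes was among the increases. Bhlhb9 was at 8.22, 9.08 and 7.54 in trisomic livers, against 3.69, 3.83 and 3.83 in euploid livers, a rise of 4.49 (SE 0.38, adjusted p = 0.0076). Bex1 was at 8.30, 7.91 and 7.90 in trisomic livers, against 5.22, 4.58 and 5.10 in euploid livers, a rise of 3.07 (SE 0.26, adjusted p = 0.0076). The genotypes did not overlap in either gene. Atp7a, the copper-exporting ATPase whose relative Atp7b is the usual form of hepatocytes, rose by 2.09, and Nbdy, which encodes a small protein bound to the mRNA decapping machinery, by 1.59. The neighbours of Atp7a went the other way: the magnesium transporter gene Magt1 differed by -0.80 and the chromatin remodeller gene Atrx by -1.55, both without overlap and both short of the threshold. With Cask, which fell, 5 of the 207 X-linked members passed (2.42%), against 0.515% of all members. The arrays were separate in 21.7% of the X-linked members, against 22.3% of all members. On chromosome 13, 0 of 287 genes passed.

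The glutathione transferase genes Gstp3 and Gstm3 rose by 1.70 (SE 0.20) and 1.34 (SE 0.15). Gstm3 lies in a cluster of related genes on chromosome 3. Its neighbours Gstm7, Gstm2 and Gstm1 differed by 1.06, 0.50 and 0.43, each with all trisomic above all euploid arrays and none past the threshold. Gstm6, directly beside Gstm3, differed by 0.63 with overlapping arrays and did not pass either. Whether probes of 1 member also bind transcripts of another was not tested. Abcc4, an efflux pump for bile acids and conjugated steroids, was at 4.93, 6.05 and 5.00 in trisomic livers, against 2.83, 2.78 and 2.79 in euploid livers, where it lay in the background range. The remaining increases were Fam81a, Tmem98, Smim22, Mfge8, which encodes a bridging protein for the uptake of dying cells, Fkbp7, a folding enzyme of the endoplasmic reticulum, Clca3a1, the signalling scaffold gene Card10, Palmd, Postn, which encodes the matrix protein periostin, Myadm, the mitochondrial iron-sulfur protein gene Cisd3 and the retinol dehydrogenase gene Rdh16f2. They ran from 2.78 for Fam81a to 0.65 for Rdh16f2. Smim22 was among the most abundant, at 13.14, 13.32 and 13.11 in trisomic livers, against 11.85, 10.99 and 10.82 in euploid livers.

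**Figure D2:**
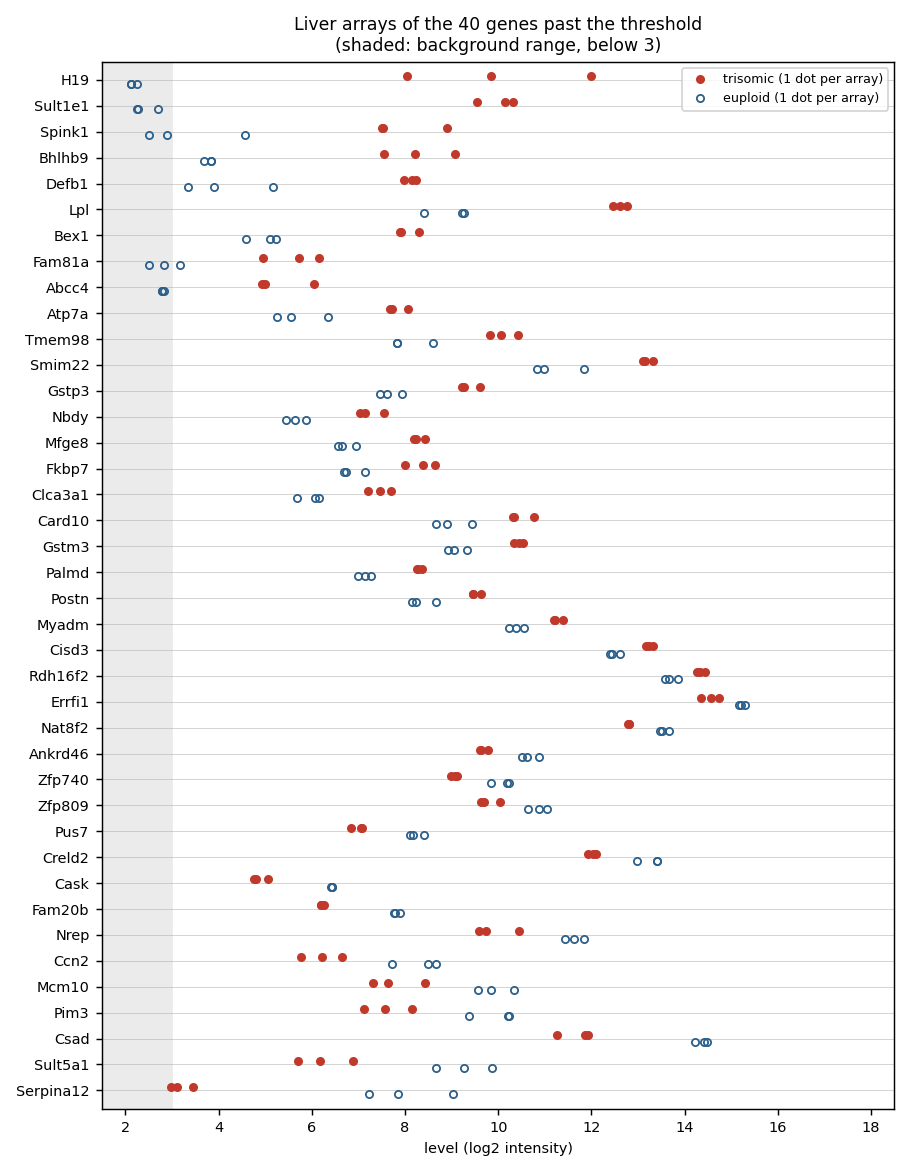
Level (log2 intensity) of the 40 genes past the threshold on each liver array, with trisomic arrays as filled red dots above euploid arrays as open blue dots. Genes run from the largest rise (H19, 7.80) to the largest fall (Serpina12, -4.86), the grey band marks the background range below 3, and the dots of the genotypes do not overlap in any gene.

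Among the genes that fell, Csad had the steadiest difference. It encodes cysteine sulfinic acid decarboxylase, the enzyme that commits cysteine to taurine, the amino acid used to conjugate bile acids in mice. Csad was at 11.92, 11.86 and 11.27 in trisomic livers, against 14.22, 14.48 and 14.42 in euploid livers. All trisomic arrays were more than 2 log2 units below all euploid arrays. It fell by 2.69 (SE 0.18, adjusted p = 0.00235), by 2.49 without trisomic replicate 3, and passed whichever array was left out, which only Sult1e1, Lpl and Csad did among the 40. Cyp7a1, the rate-limiting enzyme of bile acid synthesis, was at 8.58, 9.79 and 9.03 in trisomic livers, against 10.61, 10.41 and 10.49 in euploid livers. Its difference of -1.37 did not pass (adjusted p = 0.0759).

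Serpina12, the vaspin gene, had the largest decrease. It was at 3.11, 3.45 and 2.98 in trisomic livers, against 7.23, 7.86 and 9.03 in euploid livers, and fell by 4.86 (SE 0.45, adjusted p = 0.0112). The trisomic arrays lay at or just above the background range, so the gene reached the minimum mean through its euploid arrays. Neighbouring serpin genes on chromosome 12 were also lower on every trisomic array, without passing: Serpina4-ps1 by -6.65, Serpina9 by -3.59 and Serpina11 by -0.80. On chromosome 6 only part of a gene cluster was lower. Nat8f2, of the Nat8 family of acetyltransferases, fell by 0.75 (SE 0.09), while its neighbours Nat8 and Nat8f5 differed by -5.15 and -4.18 and did not pass (adjusted p = 0.0566 and 0.0759). On its other side Nat8f4 and Nat8f1 differed by 0.098 and 0.12, with overlapping arrays. The arrays of Nat8 spread over more than 3 log2 units in trisomic livers, and those of Nat8f2 stayed between 12.78 and 12.81. Around Rdh16f2 on chromosome 10 the directions were mixed, with 1.36 for Rdh16, 1.08 for Rdh9 and -2.43 for Sdr9c7, none past the threshold.

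Of the 16 genes that fell 5 lie on chromosome 15, where 6 of 327 members passed (1.83%), against 0.515% of all members. The arrays were separate in 18% of the members there, against 22.3% of all members. Csad lies beside the zinc finger gene Zfp740, which fell by 1.03, and Creld2 beside Pim3, a serine/threonine kinase gene of growth signalling. Pim3 was at 7.56, 8.14 and 7.12 in trisomic livers, against 10.24, 10.22 and 9.37 in euploid livers, and fell by 2.33 (SE 0.33, adjusted p = 0.0375). Ankrd46 completed the 5. Other decreases concerned the sulfotransferase gene Sult5a1 (-3.01), Ccn2, a matrix-associated growth factor gene induced by YAP signalling (-2.08), Nrep (-1.71), Fam20b, a kinase gene of glycosaminoglycan synthesis (-1.60), the scaffold gene Cask (-1.55), the pseudouridine synthase gene Pus7 (-1.23), Zfp809, a zinc finger gene that silences retroviral elements (-1.07), and Errfi1, a feedback inhibitor of the EGF receptor (-0.68). Fam20b had the tightest arrays, at 6.20, 6.25 and 6.19 in trisomic livers, against 7.77, 7.79 and 7.89 in euploid livers.

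Most of these calls depended on having all 6 arrays. Of the 40 genes, 20 passed in none of the 6 fits that left out 1 array, although all 40 kept their direction and at least 2/3 of their size, and the highest adjusted p was 0.154.

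Gene lists were read by how many of their members separated the genotypes, against 10.7% of all members upward and 11.6% downward. One list that lay mostly in 1 direction was that of endoplasmic reticulum chaperones and stress genes, 32 genes that fold, modify and export secretory proteins. In 19 of the 32 all trisomic arrays lay below all euploid arrays and in 0 above, 29 had a lower mean, and the median difference was -0.43, against -0.019 over all members. Creld2, an endoplasmic reticulum protein induced by stress, was the 1 member that passed. It was at 12.09, 11.92 and 12.04 in trisomic livers, against 12.98, 13.41 and 13.40 in euploid livers, and fell by 1.24 (SE 0.14, adjusted p = 0.0207). With the spread shared over 22 arrays 12 members passed downward and 1, the translocon gene Sec61b, upward. Without trisomic replicate 3 the median was -0.47 and 21 members were separated downward, but with 2 trisomic arrays 1363 of the 7761 members were separated downward, against 899 with 3.

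Several of the most abundant chaperone transcripts took part. Hspa5, the principal chaperone of the compartment (BiP), was at 14.95, 14.90 and 15.05 in trisomic livers, against 15.31, 15.51 and 15.37 in euploid livers. Its difference of -0.43 (SE 0.08) just missed the threshold (adjusted p = 0.0571). Hsp90b1, the compartment's form of Hsp90, was at 14.33, 14.35 and 14.36 in trisomic livers, against 14.74, 15.04 and 15.07 in euploid livers, a difference of -0.60 (adjusted p = 0.0525). The groups were narrow and did not overlap in either gene. Among cofactors of BiP, Sdf2l1 differed by -1.71, Dnajb11 by -1.08, the exchange factor gene Hyou1 by -0.91 and Dnajc3 by -0.73. Among disulfide isomerases, Pdia4 differed by -0.98, Pdia3 by -0.79 and Pdia6 by -0.70, but P4hb by only -0.07. The lectin chaperone genes Canx and Calr differed by -0.73 and -0.34. None of these passed, and all had separate arrays. Xbp1, which encodes a transcription factor of the stress response, differed by -0.18. Some list members hardly differed: Edem1 by -0.005, Derl1 by -0.06, Ern1 by 0.03 and Selenos by 0.02, all with overlapping arrays.

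**Figure D3:**
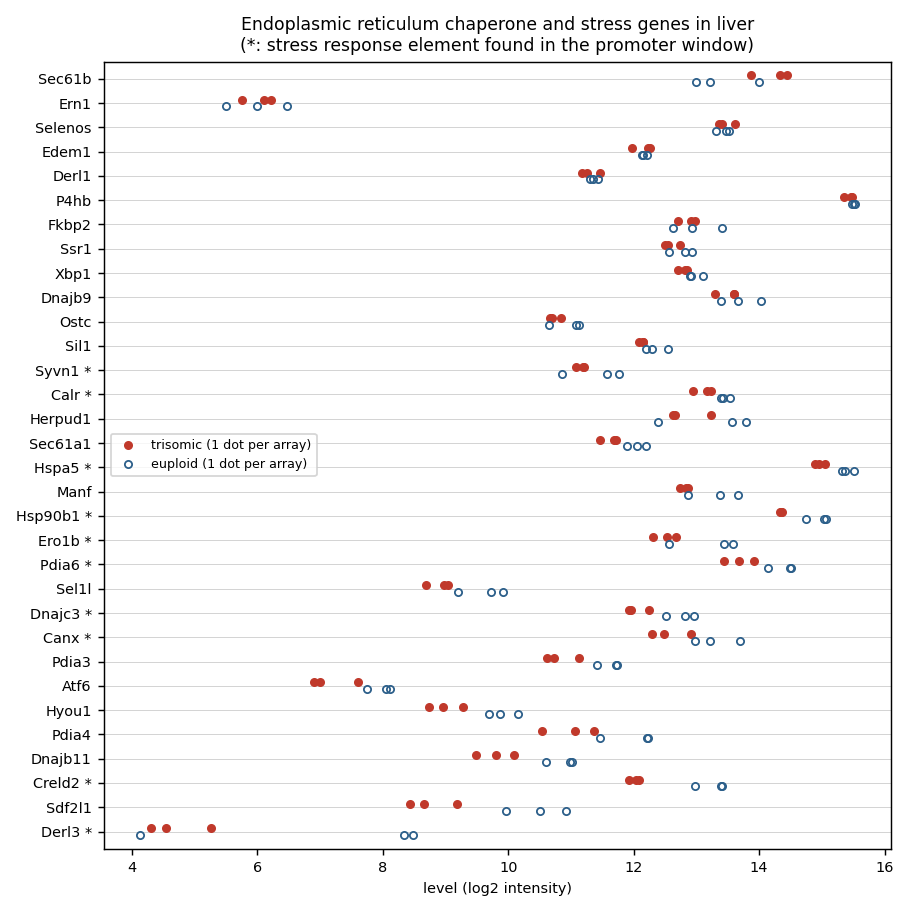
Level (log2 intensity) of the 32 endoplasmic reticulum chaperone and stress genes on each liver array, with trisomic arrays as filled red dots above euploid arrays as open blue dots, ordered by their difference from Sec61b (0.81) to Derl3 (-2.28). A star marks the 10 genes whose promoter window holds the stress response element, and the trisomic dots lie left of the euploid ones without overlap in 19 genes.

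The endoplasmic reticulum stress response element is the sequence through which ATF6, with NF-Y, is known to raise chaperone genes. The letters CCAAT, then 9 bases of any kind and then CCACG, were searched on both strands in RefSeq promoter windows of the build GRCm38.p6, from 250 bases before to 50 bases after the annotated start, and no overlap with other motifs was examined. A window was found for 6381 of the 7761 members, and 12 of these genes held the element (0.188%), as did 37 of the 27025 genes with a window in the whole table (0.137%). Among list genes it was in 10 of 25 with a window, a list of genes known for this response. Of the 12 genes, 11 had a lower mean in trisomic liver, in 7 the arrays were separate and lower, in 0 separate and higher, and the median difference was -0.65. Within the list the median was -0.70 over the 10 genes with the element and -0.18 over the 15 without it. In each of these 2 groups 7 genes were separate and lower. Over the 7 list genes without a window the median was -0.43, and 5 were separate and lower. The 2 genes outside the list, Pan2 and Acnat2, differed by -0.22 and 0.04. The windows of 5 of the 7 separated genes that hold the element are printed with it in capitals. The position and orientation of the shared element can be read from them. It lay 65 bases before the start in Hspa5, 126 in Creld2, 145 in Canx, 105 in Dnajc3 and, in 2 copies, 212 and 107 in Hsp90b1, counted from its first base. It is in reverse orientation in Creld2 and in the second copy of Hsp90b1. A match to these letters is a description and no evidence of binding.
Creld2 (chr15:88819396-88819695, plus strand): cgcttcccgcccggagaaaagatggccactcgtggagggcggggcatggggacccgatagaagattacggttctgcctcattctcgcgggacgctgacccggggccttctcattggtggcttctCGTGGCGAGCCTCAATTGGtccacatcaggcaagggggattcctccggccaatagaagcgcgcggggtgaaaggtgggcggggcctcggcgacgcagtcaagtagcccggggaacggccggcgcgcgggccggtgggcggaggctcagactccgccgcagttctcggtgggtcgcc
Hspa5 (chr2:34771840-34772139, plus strand): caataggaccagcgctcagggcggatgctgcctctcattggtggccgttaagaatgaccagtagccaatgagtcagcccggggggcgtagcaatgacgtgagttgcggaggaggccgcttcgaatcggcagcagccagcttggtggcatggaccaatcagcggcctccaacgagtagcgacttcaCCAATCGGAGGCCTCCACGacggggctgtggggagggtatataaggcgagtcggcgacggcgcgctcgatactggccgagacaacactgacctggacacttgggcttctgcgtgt
Hsp90b1 (chr10:86705395-86705694, minus strand): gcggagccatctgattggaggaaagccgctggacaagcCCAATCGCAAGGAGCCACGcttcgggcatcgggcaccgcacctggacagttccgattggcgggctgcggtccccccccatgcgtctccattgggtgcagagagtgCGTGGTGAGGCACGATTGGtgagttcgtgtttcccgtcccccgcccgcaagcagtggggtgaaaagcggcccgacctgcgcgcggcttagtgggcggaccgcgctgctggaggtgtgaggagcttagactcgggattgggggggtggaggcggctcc
Canx (chr11:50325624-50325923, minus strand): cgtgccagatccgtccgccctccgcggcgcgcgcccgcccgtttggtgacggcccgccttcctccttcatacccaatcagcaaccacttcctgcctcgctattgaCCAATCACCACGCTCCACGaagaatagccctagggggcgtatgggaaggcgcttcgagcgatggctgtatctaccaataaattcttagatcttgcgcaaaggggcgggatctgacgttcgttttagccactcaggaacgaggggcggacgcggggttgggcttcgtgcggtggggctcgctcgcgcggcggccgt
Dnajc3 (chr14:118937682-118937981, plus strand): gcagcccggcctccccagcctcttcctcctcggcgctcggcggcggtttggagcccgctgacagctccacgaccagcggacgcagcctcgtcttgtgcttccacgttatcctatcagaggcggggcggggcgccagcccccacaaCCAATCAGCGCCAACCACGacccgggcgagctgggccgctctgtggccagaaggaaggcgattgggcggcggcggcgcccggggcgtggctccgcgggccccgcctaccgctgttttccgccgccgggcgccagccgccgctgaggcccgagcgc

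Cytosolic heat shock genes, the chaperones of the cytosol, had a like but smaller shift. In 8 of 17 members the arrays were separate and lower in trisomic liver, in 0 higher, with a median of -0.33, and none passed. Hsph1, an Hsp110 chaperone gene, was at 10.76, 10.48 and 10.47 in trisomic livers, against 12.03, 11.35 and 10.97 in euploid livers. Ahsa1, which activates Hsp90, differed by -0.63 and the chaperonin subunit gene Cct3 by -0.54. Without trisomic replicate 3 the median was -0.38.

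Genes whose liver expression depends on sex had the widest differences. Both genotypes were male. Of 19 female-biased members all had a higher mean in trisomic liver, 14 with separate arrays, and the median was 3.47, against -0.019 over all members. Of 25 male-biased members 22 had a lower mean, 16 with separate arrays, with a median of -0.87. In the fit of the liver arrays 0 female-biased members and 1 male-biased member, Serpina12, passed, whereas with the spread shared over 22 arrays 15 passed upward and 14 downward. Of 25 female-biased and 27 male-biased genes on the array 6 and 2 did not reach the minimum mean, and a gene that is high in only 1 genotype reaches it through that genotype. Without trisomic replicate 3 the medians were 3.01 and -0.97.

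The arrays of a genotype spread widely in these genes. Cyp2b13, a female-biased cytochrome P450 gene, was at 5.79, 13.35 and 9.73 in trisomic livers, against 1.85, 1.83 and 1.83 in euploid livers. Its relative Cyp2b9 was at 13.12, 14.28 and 13.45 in trisomic livers, against 7.25, 9.06 and 2.00 in euploid livers. The hydroxyacid oxidase gene Hao2 was at 5.35, 10.76 and 8.25 in trisomic livers, against 2.84, 2.34 and 2.30 in euploid livers. Trisomic replicate 2 was the highest in all 3 genes, and euploid replicate 3 was the lowest in Cyp2b9. The male-biased genes gave the mirror image. Hsd3b5, a steroid dehydrogenase gene of male liver, was at 10.72, 1.83 and 9.69 in trisomic livers, against 13.33, 12.77 and 13.99 in euploid livers. Serpina4-ps1 was at 7.60, 2.21 and 5.25 in trisomic livers, against 10.73, 11.44 and 12.84 in euploid livers. Cyp7b1, which hydroxylates oxysterols and steroids, was at 11.80, 10.84 and 11.06 in trisomic livers, against 14.22, 13.23 and 15.38 in euploid livers. Trisomic replicate 2 was the lowest of the arrays in each of these, and euploid replicate 3 the highest.

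The order of the arrays recurred over the lists. The median of the female-biased members relative to the euploid mean was 2.26, 4.20 and 2.59 on the trisomic arrays and 0.02, 1.19 and -1.22 on the euploid arrays, and that of the male-biased members was -0.68, -1.16 and -0.82 on the trisomic arrays and -0.03, -0.23 and 0.32 on the euploid arrays. The lipoprotein receptor gene Vldlr was tight on the trisomic but not on the euploid arrays. It was at 9.17, 8.84 and 9.15 in trisomic livers, against 5.37, 6.01 and 3.08 in euploid livers, and its difference of 4.23 narrowly missed the threshold (adjusted p = 0.0506). Igf1, the hepatic target of growth hormone, differed by -0.19 (adjusted p = 0.391), and Onecut1, a transcription factor gene of the liver, by -2.59 with overlapping arrays. The cause of the spread was not tested.

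**Figure D4:**
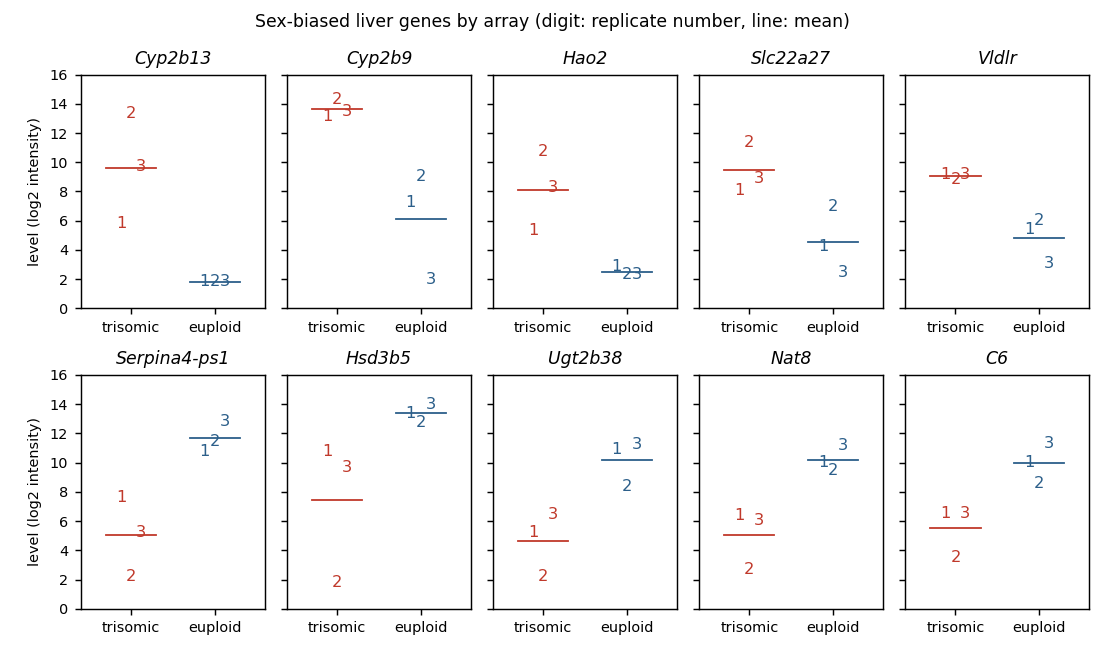
Level (log2 intensity) of 5 female-biased genes (upper row) and 5 male-biased genes (lower row) in trisomic livers (red, left) and euploid livers (blue, right), where a digit is the replicate number of an array and a line is the group mean. Trisomic replicate 2 lies farthest from the euploid arrays in 9 of the 10 genes, the exception being Vldlr.

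Of 18 genes of DNA replication and mitosis, 16 had a higher mean in trisomic liver and 2 a lower one. Mcm10, which acts at the initiation of DNA replication, was the 1 member that passed, and it fell. It was at 8.43, 7.62 and 7.31 in trisomic livers, against 9.56, 9.84 and 10.34 in euploid livers, a fall of 2.13 (SE 0.33, adjusted p = 0.0472). In 9 of the 18 members, by contrast, all trisomic arrays were the higher. Cdc20, an activator of the anaphase-promoting complex, was at 6.16, 5.69 and 8.85 in trisomic livers, against 2.59, 2.62 and 2.25 in euploid livers. The helicase subunit genes Mcm6 and Mcm5 differed by 3.43 and 2.76 and the spindle checkpoint gene Mad2l1 by 2.58, none past the threshold. Trisomic replicate 3, the array with muscle transcripts, was the highest in each of these 4 genes. The median of the members relative to the euploid mean was 0.98, 0.81 and 2.49 on the trisomic arrays, and the median difference of 1.44 was 0.92 without that array. Another 24 genes of the list were below the minimum mean, which genes silent in euploid liver reach only when raised in trisomic liver.

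Lipid genes beside Lpl had smaller differences. In 7 of 26 members of the list for lipid synthesis and storage the trisomic arrays were all the higher and in 1 all the lower, with a median of 0.21. The fatty acid transporter gene Cd36 was at 10.78, 11.87 and 11.04 in trisomic livers, against 8.57, 10.18 and 8.22 in euploid livers. Acss2, which makes acetyl-CoA from acetate, differed by 1.41 and the desaturase gene Scd1 by 0.98. Of fatty acid oxidation genes 7 of 28 were separate and higher and 2 lower, with the largest values in the Cyp4a genes for omega oxidation (3.04 in Cyp4a31 and 2.47 in Cyp4a14). Ehhadh of the peroxisome was at 15.26, 15.58 and 15.50 in trisomic livers, against 14.98, 14.82 and 14.98 in euploid livers. Lpl was the 1 gene of both lists that passed.

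Subunits of oxidative phosphorylation moved by little but in 1 direction. Of 58 members outside chromosome 17, 49 had a higher mean in trisomic liver, 19 with separate arrays and 2 with separate lower arrays, and the median was 0.14. None passed, and with the spread shared over 22 arrays 6 did. Ndufs5, of complex I, was at 12.03, 11.94 and 11.84 in trisomic livers, against 11.67, 11.06 and 11.13 in euploid livers. The largest difference was that of Cox8a, a complex IV subunit, at 6.14, 6.35 and 6.03 in trisomic livers, against 5.75, 4.51 and 4.40 in euploid livers. Trisomic replicate 3 was not the highest in either gene, and without it the median of the list was 0.16.

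Targets of NRF2, the regulator of the response to electrophiles, held 2 genes that passed, Abcc4 and Gstm3, and 9 of 29 were separate and higher and 1 lower, with a median of 0.24. The quinone reductase gene Nqo1, its usual marker, was at 5.35, 6.65 and 6.40 in trisomic livers, against 4.72, 5.07 and 3.71 in euploid livers, and did not pass. The core of the antioxidant response element, TGACNNNGC, was in the promoter windows of 12 of 25 list genes. Of all members with a window, 1087 of 6381 held it. The list is one of genes known as NRF2 targets, so its share cannot tell whether NRF2 differed in these livers. Among genes past the threshold with a window, 2 of 19 that rose and 0 of 12 that fell held the core. Of circadian clock genes 6 of 14 were separate and lower, and 1 separate and higher, with a median of -0.37. Per1 was at 7.99, 5.95 and 7.89 in trisomic livers, against 9.32, 9.50 and 8.70 in euploid livers, and Usp2 differed by -1.55. Neither passed, and the labels give no time of day for the dissection. Irs2, the insulin receptor substrate of hepatocytes, was at 5.89, 5.58 and 6.17 in trisomic livers, against 7.18, 7.76 and 7.44 in euploid livers, and missed the threshold narrowly (adjusted p = 0.0506).

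**Figure D5:**
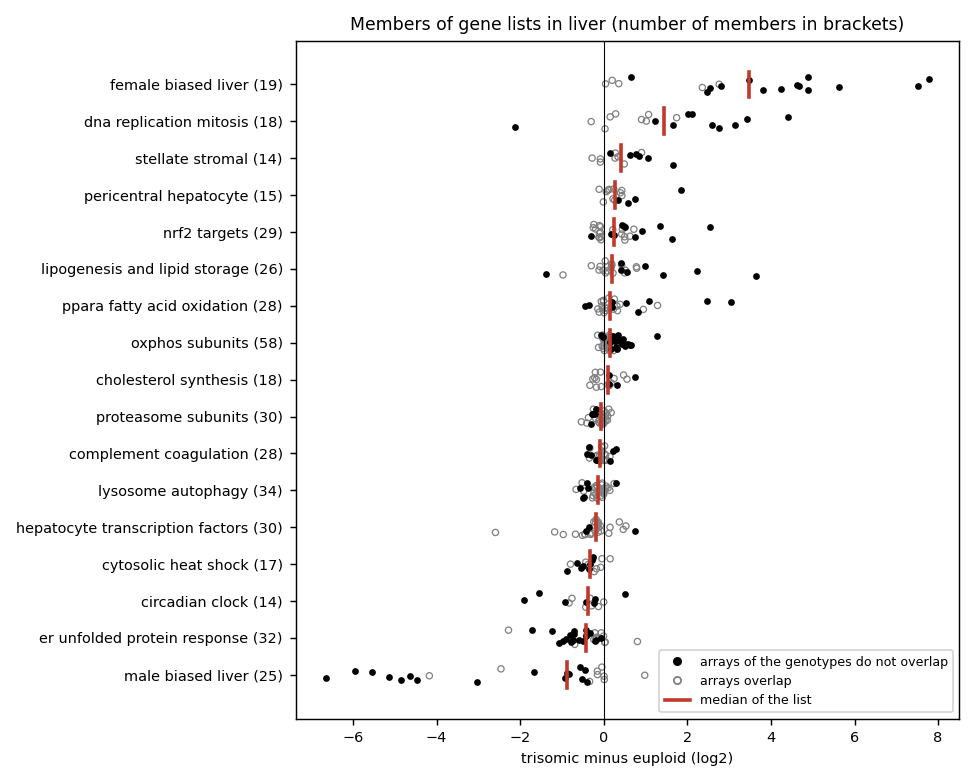
Trisomic minus euploid difference (log2) of the members of 17 gene lists, with 1 circle per gene, filled where the arrays of the genotypes do not overlap and open where they do, and a red line at the median of each list. Medians run from 3.47 for female-biased genes to -0.87 for male-biased genes, with 1.44 for genes of DNA replication and mitosis.

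Markers of other cells differed in part. The summed level of the 22 stellate and stromal markers was 14.999 to 15.25 in trisomic and 14.75 to 14.95 in euploid livers, and the collagen gene Col1a2 was at 7.97, 7.67 and 7.03 in trisomic livers, against 5.81, 6.14 and 5.75 in euploid livers (adjusted p = 0.0545). The part of these cells in the rise of Postn was not tested. The 8 red cell markers summed to 10.73 to 11.63 in trisomic and 12.30 to 12.98 in euploid livers, and most of this sum is Alas2, the erythroid enzyme of haem synthesis, at 11.45, 10.54 and 11.54 in trisomic livers, against 12.91, 12.27 and 12.96 in euploid livers. Car1, another red cell gene, went the other way, with a difference of 1.20. Pericentral hepatocyte markers had a median difference of 0.26, with 4 of 15 separate and higher and 0 lower, among them the transporter gene Slc1a4 (1.85). Slc1a4, with a mean of 3.15 in euploid livers, reached the minimum mean through its trisomic arrays. Of the 9 markers of bile duct cells on the array outside chromosome 17, 3 passed the filter on low levels. They had higher means in trisomic livers, with a median difference of 1.26. This is the value of the keratin gene Krt19, which reached the minimum mean through its trisomic arrays (mean 5.02, against 3.76 in euploid livers). The fibrocystin gene Pkhd1 was at 7.09, 7.84 and 9.27 in trisomic livers, against 7.10, 6.70 and 5.92 in euploid livers, which overlapped. Without trisomic replicate 3 the median was 0.89. Of the 11 sinusoidal endothelium markers that passed the filter 8 had lower means, 1 of them with separate arrays, and the median was -0.39. The hyaluronan receptor gene Lyve1 was at 4.71, 3.13 and 3.14 in trisomic livers, against 4.62, 7.78 and 6.56 in euploid livers, which also overlapped. None of these markers passed the threshold. Markers of T cells, B cells, neutrophils and pancreatic acini lay almost entirely in the background range, with 12 of 13, 6 of 7, 8 of 10 and 7 of 9 below 3 on all arrays.

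The translocation chromosome of Ts43H also involves chromosome 16, so the last 3 Mb of that chromosome were examined. None of the 12 members there passed, and their median difference was -0.0058. In 2 of them, Tmprss2 (1.52) and Hmgn1 (0.19), all trisomic arrays were the higher, a separation that 10.7% of all members had. With the spread shared over 22 arrays 2 of the 12, Tmprss2 and Bace2 (0.42), passed upward and 0 downward, against 5.48% and 4.29% of all members.

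The same genes were followed in the germ cells of both genotypes, where 16 of the 40 had a mean under 4 in all 3 populations, namely spermatocytes of pre-mid-pachytene, spermatocytes of mid-late-pachytene and spermatids. Of those that could be tested, 22, 15 and 17 in this order, 3 passed in pre-mid-pachytene spermatocytes and 0 in the other two. Outside chromosome 17 11.8%, 1.08% and 0.739% of the tested genes passed in these cells. Nbdy rose by 0.71 (adjusted p = 0.0132) and Zfp809 fell by 0.59 (adjusted p = 0.0302), in the direction of liver, while Fkbp7, which rose in liver, fell by 0.65 (adjusted p = 0.0393). Csad was expressed in all 3 germ cell types and differed by -0.18, 0.62 and 0.05, none past the threshold. Creld2 was expressed in all 3 germ cell types, with means of 14.18, 13.85 and 14.89, above its liver mean of 12.64, and differed by 0.21, 0.06 and 0.06. With the spread shared over 22 arrays, 758 genes passed in liver. Of these 400, 362 and 358 could be tested in the 3 germ cell types, and 46, 5 and 3 passed. The direction was that of liver in 19, 1 and 2 and the opposite in 27, 4 and 1. The former are 2.51%, 0.132% and 0.264% of the 758 liver genes and 2.02%, 1.20% and 3.45% of the germ cell genes that passed.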

How the data were processed

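RNA of 3 trisomic and 3 euploid livers was measured on Affymetrix arrays after 2 cycles of labelling, per the labels' protocols. The authors deposited log2 intensities per probe set computed with GCRMA, per the submitters' processing notes, whose version is not given in the sources used here. GCRMA subtracts a background estimated from base composition, so values near the floor are compressed and vary little. Of 16539 probe sets 15780 carried 1 gene symbol each, 15752 of which were placed with a RefSeq gene table of GRCm38.p6, while 759 had no name and were not used.

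The 6 liver arrays were fitted with limma 3.58.1 in R 4.3.3 (lmFit, then eBayes with trend and robust), without covariates. Tests were two-sided, with Benjamini-Hochberg adjustment at 0.05 over all 8180 named genes with a mean of at least 4, of which 408 lie on chromosome 17 and 11 are unplaced. Germ cell contrasts and the second liver count came from a fit of the 8 group means of all 22 arrays with plain eBayes. The script was tested on simulated data. The number of arrays limits the precision.

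The alternatives were plain eBayes, array weights, quantile normalization, centring on the autosomal median, a floor at 3, genes tested without a filter or above a mean of 6 or 8, the replicate number as a block, all 22 arrays, and leaving out each liver array. The replicate numbers were not taken as pairs.

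The genes, the 47 lists (32 of pathways, 15 of cell type markers) and the tests were chosen with earlier results of these data known. The rule names the 15 largest increases and decreases past the threshold with separate arrays, and up to 4 members per list. Genes named besides, such as chromosomal neighbours, further members of lists and the increases and the decrease beyond those 15, were chosen after their values were seen. The alternative of list medians without trisomic replicate 3 was added after seeing the data.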

Additional observations from a re-analysis of the deposited data

Results flagged for a closer look

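Some genes described for liver had every trisomic germ cell array on the opposite side of every euploid one, that is, against their direction in liver. The difference between liver and germ cells was not tested for any of them, and the values are trisomic minus euploid differences (log2). The share of all genes separated in this way in germ cells is not given here, so the number of cases cannot be weighed. Of the genes below that passed in liver, Fkbp7 alone also passed in the germ cells it is listed for. In pre-mid-pachytene spermatocytes these were Bhlhb9 (-0.396), Fkbp7 (-0.647), Card10 (-0.728) and Mcm6 (-0.423), which were higher in liver, and Zfp740 (0.336), Cct3 (0.181), Ahsa1 (0.586), Pdia4 (1.04), Canx (0.289) and Pdia6 (0.757), which were lower there. In mid-late-pachytene spermatocytes, with 2 arrays of each genotype, they were Tmem98 (-1.004), Cdc20 (-0.152) and Hmgn1 (-0.186), higher in liver, and Sult5a1 (0.567), Hyou1 (0.694), Dnajc3 (0.399) and Xbp1 (0.609), lower there. In spermatids they were Tmem98 (-1.26), Clca3a1 (-0.296), Cisd3 (-0.700) and Rogdi (-0.421), higher in liver, and Pim3 (0.319), Hspa5 (0.400) and Hsph1 (0.282), lower there. Rogdi is the neighbour of Smim22 on chromosome 16, with a higher level on all trisomic liver arrays.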

How the results depend on the processing

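The count of 24 genes that rose and 16 that fell moved with the treatment of the spread and with the genes tested. It was 11 and 5 with plain eBayes, 5 and 1 with no filter, 56 and 42 with a minimum mean of 6, 33 and 32 with one of 8, 47 and 27 after centring, and 425 and 333 with the spread of all 22 arrays. Array weights gave 32 and 24, quantile normalization 21 and 19 and a floor at 3 gave 26 and 18. Leaving out 1 array left 3 to 22 rises and 1 to 11 falls (9 and 3 without trisomic replicate 3). The cause of these shifts was not tested, apart from fewer arrays and other numbers of tested genes.

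With the replicate number as a block the counts were 42 and 32, and 28 of the 40 genes passed. Deviations of same-numbered arrays correlated with 0.07, 0.25 and 0.12, and those of arrays with different numbers with -0.22 to 0.08. Each trisomic replicate correlated best with the euploid replicate of its number. Euploid replicate 1 correlated slightly better with trisomic replicate 3 (0.08) than with trisomic replicate 1 (0.07). The labels do not say that the numbers are pairs, and they were not read as such. Whether they are pairs was not tested.

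The 19 genes that passed in the same direction in pre-mid-pachytene spermatocytes were 16 with a minimum mean of 6 and 13 with trend and robust. They were 27 with the block and 13 to 26 without 1 liver array. The 1 shared with mid-late-pachytene spermatocytes was 0 under each of the first 3 and 0 to 3 without 1 array. The 2 shared with spermatids were 1, 1 and 3, and 1 to 3 without 1 array. With 3 arrays of each genotype, a difference as large as that of Cyp2b13 (7.79) did not pass where the arrays of a genotype spread widely. None of the genes recomputed under these alternatives changed direction. Without trisomic replicate 3, 2 list medians near 0 changed sign, to 0.03 from -0.05 for acute phase genes and to -0.03 from 0.0049 for xenobiotic targets, and the medians of the bile duct and adipocyte markers moved to 0.89 and 0.097, against 1.26 and 0.34 with it.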
